A study of Rattus norvegicus with 31 samples.

Results

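The 2 epoxide hydrolase genes Ephx1 and Ephx2 and 10 carboxylesterase (Ces) genes were followed in livers of rats that had been exposed to thiacloprid (THI), imazalil (IMZ), clothianidin (CTD) or a mixture of 2 of them. Genes were taken by symbol. Ephx1 and Ephx2 were kept as such, and a symbol beginning with Ces and a digit was kept where its counts summed to at least 1000 over the 31 libraries. Of 17 such Ces rows, 10 were kept and 7 fell under the limit, 1 of them with no count at all. The row nearest under the limit was Ces2 with 711 counts, and the nearest above it was Ces4a with 22691. The 12 genes were thus 12 of 26312 genes in the count table, and all 12 were among the 19904 genes tested and had counts in all 31 rats.

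The rats were young adult female Wistar animals (Crl:WI) dosed daily by gavage for 28 days. Compounds were suspended in aqueous carboxymethyl-cellulose, and the 8 controls received this vehicle alone. THI and CTD are neonicotinoid insecticides, and IMZ is an azole fungicide. THI was given at 108 mg/kg bw/day (4 rats), IMZ at 93 mg/kg bw/day (4 rats) and CTD at 288 mg/kg bw/day (3 rats). Each mixture was given to 4 rats. THI + IMZ combined 54 and 46 mg/kg bw/day of its compounds in the order named, THI + CTD combined 54 and 134, and IMZ + CTD combined 46 and 135. Each rat gave 1 library of total liver RNA and is an independent biological replicate. Per the study's methods, 1 or more rats on this CTD dose were killed in moribund condition, which limits that group as a model of the compound alone. Library totals ran from 31820322 to 101230067 counts, and the 12 genes together took from 0.197% to 0.54% of a library. Levels are given in CPM, a gene's count relative to the total of its library on a fixed scale, with library sizes adjusted by the trimmed mean of M-values. They are not divided by gene length, so they compare rats within a gene and not genes with each other.

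Epoxide hydrolases add water to epoxides, the strained, reactive rings that cytochrome P450 enzymes form on drugs, pesticides and lipids, and so turn them into diols. Microsomal epoxide hydrolase, encoded by Ephx1, sits in the endoplasmic reticulum and handles mainly foreign compounds. Soluble epoxide hydrolase, encoded by Ephx2, lies in the cytosol and peroxisomes and handles mainly epoxides of fatty acids. Carboxylesterases are serine hydrolases of the lumen of the endoplasmic reticulum that cleave esters, amides and thioesters, among them ester drugs, pyrethroids and stored lipids. Rodents carry many copies, grouped as Ces1 to Ces5 and named by a letter, most of them side by side in tandem arrays. Liver is the organ known for the highest activity of both enzyme families.

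In the RefSeq gene table of assembly GRCr8, Ces1e, Ces1d and Ces1c followed each other on chromosome 19, with Ces1f before and Ces1a after them. Ces2g, Ces2h (written CES2H in the count table) and Ces4a lay close together elsewhere on chromosome 19. Ces2e and Ces2j stood in another stretch of this chromosome, and Ces2i on chromosome 1 beside Ces2c. Ephx1 is on chromosome 13 and Ephx2 on chromosome 15. Genes were matched to this table by symbol alone. RefSeq promoters of GRCr8 were found for 10 of the 12 genes, and the 250 bases before the start site were used. Ces1h and Ephx2 had no entry.

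Ces2i and Ces2j are shown first because their levels moved together across rats while they lie on different chromosomes. Their upstream sequences were 90.1% identical over a global alignment, with 228 identical positions, 19 mismatches and 6 gap positions. The next highest identity among the 36 Ces pairs was 61.4%, and the median was 49.8%. Capitals mark bases that differ or have no partner. The Ces2i window is chr1:270307363-270307612 and the Ces2j window chr19:304819-305068 (GRCr8, both on the plus strand, 5′ to 3′).
Ces2i: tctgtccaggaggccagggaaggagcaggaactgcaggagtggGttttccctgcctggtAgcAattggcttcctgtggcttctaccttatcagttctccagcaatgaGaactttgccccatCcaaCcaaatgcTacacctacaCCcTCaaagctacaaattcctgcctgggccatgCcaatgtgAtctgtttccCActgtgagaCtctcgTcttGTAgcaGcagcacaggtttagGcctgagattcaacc
Ces2j: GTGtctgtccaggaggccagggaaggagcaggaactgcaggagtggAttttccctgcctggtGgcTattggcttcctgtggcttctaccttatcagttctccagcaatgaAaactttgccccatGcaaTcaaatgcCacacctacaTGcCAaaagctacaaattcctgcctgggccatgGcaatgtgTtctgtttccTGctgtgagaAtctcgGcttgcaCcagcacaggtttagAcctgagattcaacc

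Ephx1 and Ces2g are shown because theirs were the members' windows that held TGACNNNGC, the core of the element bound by NRF2, the sensor of electrophiles. The search took both strands. This motif was present in 10.1% of all 33469 RefSeq promoter windows of this length. The hexamers AGGTCA and AGTTCA, which nuclear receptors such as CAR and PXR bind in pairs, were present in 24.3% of windows. Such a pair with 4 bases between was present in 0.0149% of windows and in no member. Capitals mark matches of either kind, which did not overlap in these windows. The Ephx1 window is chr13:95263118-95263367 on the minus strand, with TGACNNNGC 57 bases before the start site (read on the other strand) and hexamers 196 and 131 bases before it. A second Ephx1 start site in RefSeq had no match. The Ces2g window is chr19:49856420-49856669 on the plus strand, with its match 141 bases before the start site. A match to letters is not evidence of binding.
Ephx1: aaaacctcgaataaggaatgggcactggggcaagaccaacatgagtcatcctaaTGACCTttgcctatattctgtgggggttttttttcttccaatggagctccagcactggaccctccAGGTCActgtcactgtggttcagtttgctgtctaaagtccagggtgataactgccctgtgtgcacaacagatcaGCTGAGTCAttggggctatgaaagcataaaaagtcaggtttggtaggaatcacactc
Ces2g: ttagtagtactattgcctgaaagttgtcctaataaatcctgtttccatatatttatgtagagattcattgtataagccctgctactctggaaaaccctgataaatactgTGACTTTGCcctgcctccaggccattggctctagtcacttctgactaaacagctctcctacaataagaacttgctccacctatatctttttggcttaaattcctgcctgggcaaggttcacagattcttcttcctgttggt

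Ephx1 reached the largest log2 fold change of the 12 genes, in THI + CTD. In the 8 controls Ephx1 ranged from 212 to 761 CPM with a median of 593. The THI rats had 1706, 912, 1323 and 1321 CPM, the IMZ rats 848, 1197, 1292 and 971, and the CTD rats 1301, 1572 and 1168. All rats given a single compound thus lay above all controls. The THI + CTD rats had 1144, 2253, 1653 and 1531 CPM, and these too lay above all controls. In THI + IMZ (1144, 587, 1520 and 1903 CPM) and in IMZ + CTD (644, 1016, 1001 and 929 CPM) 1 rat each fell within the control range. Group means were 544 ± 160 CPM in controls (SD, n = 8), 1315 ± 324 in THI (n = 4), 1077 ± 204 in IMZ (n = 4), 1347 ± 206 in CTD (n = 3), 1289 ± 561 in THI + IMZ (n = 4), 1645 ± 460 in THI + CTD (n = 4) and 898 ± 173 in IMZ + CTD (n = 4).

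Tested with the quasi-likelihood F test of edgeR, with p adjusted over all 19904 genes by Benjamini-Hochberg, Ephx1 was up-regulated in 4 of 6 treatments. The log2 fold change was 1.27 ± 0.24 (SE) in THI (adjusted p = 0.00415), 1.31 ± 0.26 in CTD (adjusted p = 0.000627), 1.24 ± 0.24 in THI + IMZ (adjusted p = 0.00436) and 1.60 ± 0.24 in THI + CTD (adjusted p = 9.02e-05). It was 0.98 ± 0.24 in IMZ and 0.72 ± 0.24 in IMZ + CTD, with edgeR adjusted p = 0.0761 and 0.14, which missed the threshold of 0.05. The study tested with DESeq2 and named EPHX1 in a network drawn from the genes that all single compounds changed. All 6 comparisons share the same 8 controls. The SD of its log2 CPM in controls was 0.558, larger than in 98.2% of the 7312 genes with a mean log2 CPM above 3, whose median was 0.138. This rested on Control replicate 2, the rat at 212 CPM. Without it the SD was 0.227, larger than in 88.2% of these genes (median 0.123). Over all 31 rats Ephx1 spanned a 10.6-fold range, and 4.76-fold without Control replicate 2. The order of the group means ran from THI + CTD over CTD, THI, THI + IMZ, IMZ and IMZ + CTD to control, and the ranges of each pair of neighbours in this order overlapped.

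Ephx2 went the other way, and in CTD alone. The 3 CTD rats had 23.3, 23.6 and 25.1 CPM, and the controls ranged from 34.5 to 50.9 with a median of 40.0. No other rat of any group came as low as the CTD rats, the next lowest being a THI rat at 33.2 CPM. The THI rats had 37.2, 33.2, 45.0 and 41.5 CPM, the IMZ rats 38.0, 38.1, 39.6 and 48.5, and the IMZ + CTD rats 33.5, 44.9, 37.1 and 38.8. The highest values stood in the mixtures with THI, at 44.0, 52.8, 45.1 and 48.6 CPM in THI + IMZ and 52.3, 46.4, 43.4 and 54.7 CPM in THI + CTD. These overlapped with the controls.

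In CTD, Ephx2 fell by 0.76 ± 0.11 on the log2 scale (edgeR adjusted p = 1.71e-05, lower than all controls in 3 of 3 rats). None of the other 5 treatments passed. The value was 0.23 ± 0.10 in THI + IMZ (edgeR adjusted p = 0.347) and 0.27 ± 0.10 in THI + CTD (edgeR adjusted p = 0.0997). Of all genes tested, 6.03% passed downwards in CTD, and Ephx2 was the only 1 of the 12 to do so. Along the order of group means Ephx2 in CTD did not overlap with the next group, IMZ + CTD, and this was 1 of 2 such steps among 72 over the 12 genes. The other was Ces1c between THI + IMZ and CTD. The share of such steps over all genes was not computed. Nor was the share of all genes with every CTD rat below all controls.

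Blood and macrophage transcripts also differed in the CTD livers. All 4 red blood cell markers (Hba1, Hba2, Hbb, Alas2) passed the test upwards, with a summed level of 151.7 to 184.0 CPM against 18.8 to 61.5 in controls. Of 9 Kupffer cell markers, 5 passed downwards (Cd68, C1qa, C1qb, C1qc and Csf1r), with a sum of 384 to 544 CPM against 493 to 785. All 10 cell division genes passed upwards, with a sum of 46.9 to 172.9 CPM against 8.14 to 20.2. Of all genes, 6.62% passed upwards and 6.03% downwards in CTD. None of 7 hepatocyte markers passed, and their sum was 194580 to 214721 CPM against 189093 to 250345. No defining marker of these lists was at 0 in CTD. Their part in the Ephx2 value and in the other CTD values was not tested. In bulk liver RNA, fewer cells of a type and less RNA per cell cannot be told apart.

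**Figure D1:**
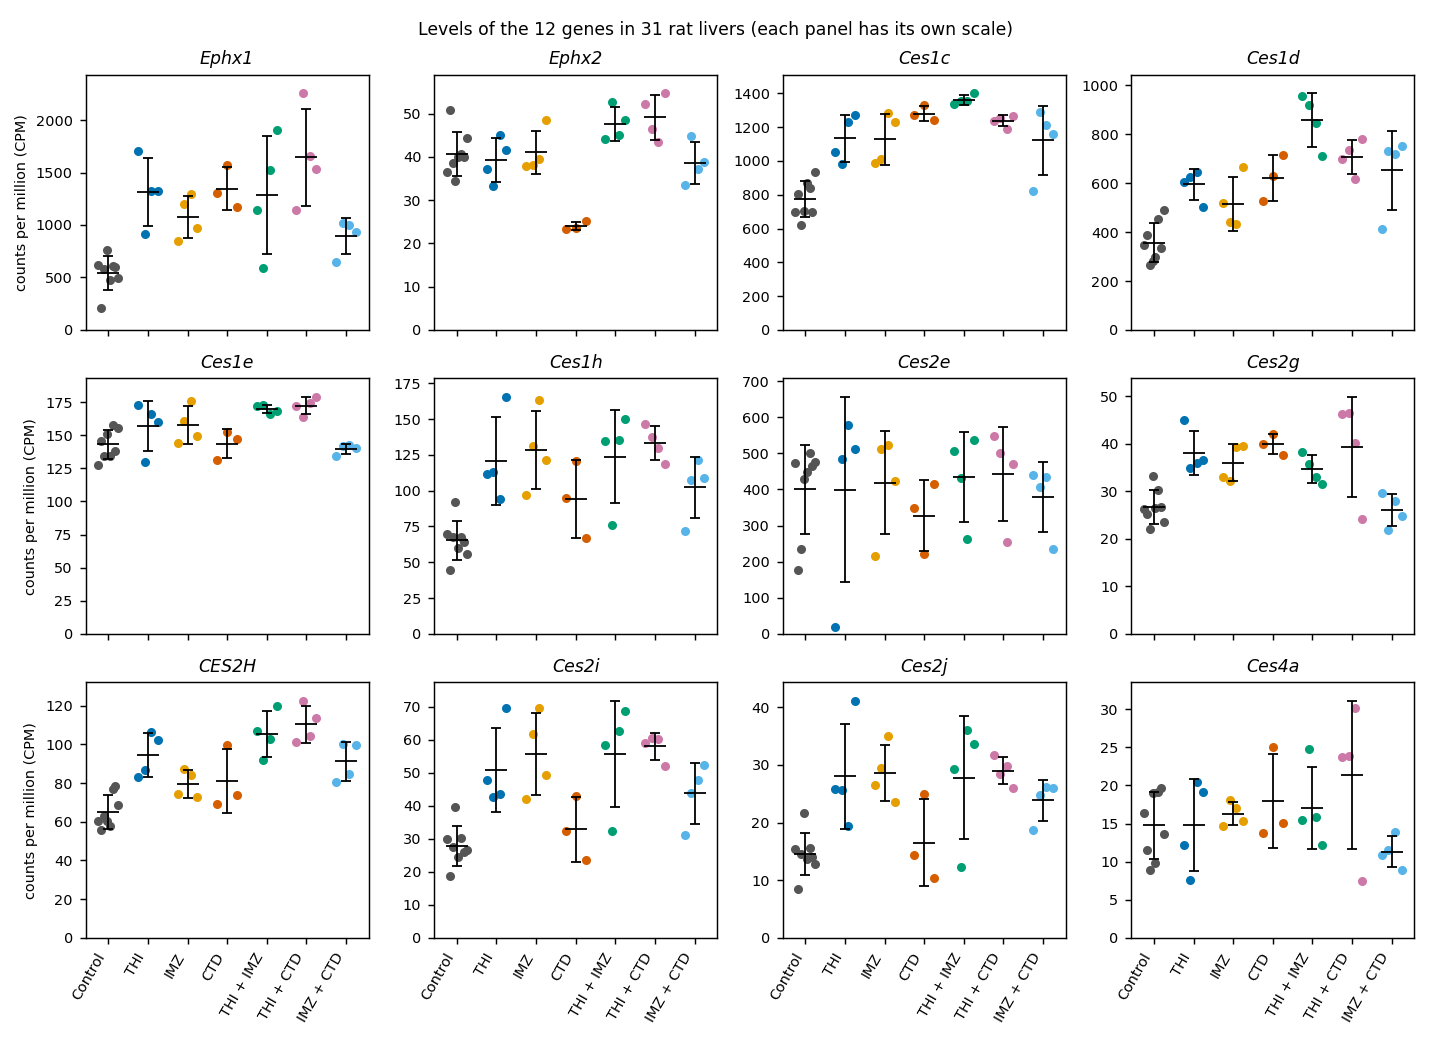
Levels of the 12 genes in CPM (vertical axes, each starting at 0 and with its own scale) by group (horizontal axis). Points are single rats, dashes the group mean and bars 1 SD. The Ephx2 points of CTD lie at 23.3 to 25.1 CPM under all other rats, and the lowest Ces2e point is a THI rat at 19.8 CPM.

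Ces1c and Ces1d, neighbours on chromosome 19, were raised most widely. Ces1d is known in rodents as a triacylglycerol hydrolase of the liver, and Ces1c as an esterase that the liver secretes into plasma. Ces1c had 624 to 938 CPM in controls, with a median of 756. Its THI rats had 1054, 980, 1229 and 1275 CPM, its IMZ rats 989, 1011, 1282 and 1231, and its CTD rats 1271, 1329 and 1240. In THI + IMZ the values were 1335, 1355, 1353 and 1399 CPM, in THI + CTD 1237, 1252, 1192 and 1268, and in IMZ + CTD 824.9, 1288, 1211 and 1161. A single treated rat, replicate 1 of IMZ + CTD, lay within the control range. Ces1c was the only member called in all 6 treatments, by between 0.54 and 0.82 on the log2 scale. The log2 fold change was 0.55 ± 0.10 in THI (edgeR adjusted p = 0.00492), 0.55 ± 0.10 in IMZ (edgeR adjusted p = 0.00839), 0.73 ± 0.11 in CTD (edgeR adjusted p = 3.75e-05), 0.82 ± 0.10 in THI + IMZ (edgeR adjusted p = 1.26e-05), 0.68 ± 0.10 in THI + CTD (edgeR adjusted p = 0.000153) and 0.54 ± 0.10 in IMZ + CTD (edgeR adjusted p = 0.00477). The IMZ call was lost without IMZ replicate 3 or 4, with an adjusted p of up to 0.0929.

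Ces1d had 267 to 491 CPM in controls (median 340). The THI + IMZ rats were the highest at 957, 920, 844 and 711 CPM. THI + CTD followed at 700, 734, 616 and 780 CPM, and IMZ + CTD at 413, 730, 719 and 752. The single compounds gave 607, 624, 644 and 504 CPM in THI, 526, 628 and 714 in CTD, and 518, 441, 432 and 668 in IMZ. Only IMZ, with 2 of 4 rats, and IMZ + CTD, with 1 of 4, overlapped with the controls. Ces1d passed in 5 of 6 treatments, with log2 fold changes of 0.74 ± 0.15 in THI (edgeR adjusted p = 0.0125), 0.80 ± 0.17 in CTD (edgeR adjusted p = 0.00106), 1.26 ± 0.15 in THI + IMZ (edgeR adjusted p = 3.66e-06), 0.99 ± 0.15 in THI + CTD (edgeR adjusted p = 0.000152) and 0.87 ± 0.15 in IMZ + CTD (edgeR adjusted p = 0.0014). In IMZ it was 0.53 ± 0.15 (edgeR adjusted p = 0.192). The THI call was lost without THI replicate 2 or 3, with an adjusted p of up to 0.0616.

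Ces1e, the gene beside Ces1d in the array, was the steadiest member. Its levels stayed between 128 and 179 CPM over all rats, a 1.40-fold range, and the SD of its log2 CPM in controls was 0.112. All 4 THI + IMZ rats (166 to 173 CPM) and all 4 THI + CTD rats (164 to 179 CPM) stood above the controls (128 to 158 CPM). Only THI + CTD passed, at 0.27 ± 0.07 (edgeR adjusted p = 0.0224), while THI + IMZ had 0.25 ± 0.07 (edgeR adjusted p = 0.0878). The THI + CTD call was lost without replicate 1, 3 or 4 of that group (adjusted p of up to 0.0792).

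Ces1h, Ces2i and Ces2j passed upwards in the same 4 treatments, THI, IMZ, THI + IMZ and THI + CTD. This set was read off against shared controls and follows the threshold. In IMZ + CTD these genes were higher by 0.65 to 0.71 on the log2 scale without passing (edgeR adjusted p = 0.0567 to 0.112). Members of the Ces2 group are known to prefer esters with a small acyl group and a large alcohol group. Ces2i had 18.6 to 39.5 CPM in controls (median 27). The THI rats had 47.9, 42.6, 43.4 and 69.7 CPM, the IMZ rats 42.1, 61.6, 69.6 and 49.2, and the THI + CTD rats 59.0, 60.6, 60.1 and 51.9, all above the controls. In THI + IMZ the values were 58.4, 32.4, 62.7 and 68.8 CPM and in IMZ + CTD 31.1, 43.8, 47.8 and 52.4, with 1 rat of each in the control range. In CTD 2 of 3 rats, at 32.2 and 23.4 CPM, lay within it and the third had 43.0. The log2 fold change of Ces2i was 0.87 ± 0.18 in THI (edgeR adjusted p = 0.0131), 1.00 ± 0.18 in IMZ (edgeR adjusted p = 0.00426), 1.00 ± 0.18 in THI + IMZ (edgeR adjusted p = 0.00253) and 1.06 ± 0.18 in THI + CTD (edgeR adjusted p = 0.000529). It was 0.65 ± 0.18 in IMZ + CTD (edgeR adjusted p = 0.0662), and CTD did not pass (edgeR adjusted p = 0.504). The CTD interval, a fold of 0.896 to 1.56 at 95%, holds both no change and a rise.

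Ces2j had 8.41 to 21.7 CPM in controls (median 14.3), 19.5 to 41.0 in THI, 23.5 to 34.9 in IMZ, 10.3 to 24.9 in CTD, 12.2 to 36.0 in THI + IMZ, 26.1 to 31.7 in THI + CTD and 18.6 to 26.1 in IMZ + CTD. Its log2 fold changes in the 4 treatments that passed ran from 0.93 ± 0.22 in THI + IMZ (edgeR adjusted p = 0.0251) to 0.99 ± 0.22 in THI + CTD (edgeR adjusted p = 0.00626). Those of THI (0.94 ± 0.22, edgeR adjusted p = 0.037) and IMZ (0.97 ± 0.22, edgeR adjusted p = 0.0459) passed narrowly. Leaving out any 1 of 10 rats ended the THI call (adjusted p of up to 0.293), and any 1 of 18 rats the IMZ call (adjusted p of up to 0.244). The THI + IMZ call of Ces2j was lost without replicate 1, 3 or 4 of that group. Ces1h had 44.5 to 92.0 CPM in controls (median 65.8) and its treated groups had medians from 94.5 in CTD to 133.7 in THI + CTD and 134.8 in THI + IMZ. Its log2 fold change was 0.89 ± 0.18 in THI (edgeR adjusted p = 0.00782), 0.98 ± 0.18 in IMZ (edgeR adjusted p = 0.00426), 0.92 ± 0.18 in THI + IMZ (edgeR adjusted p = 0.00428) and 1.03 ± 0.18 in THI + CTD (edgeR adjusted p = 0.000541). CTD (0.53 ± 0.19, edgeR adjusted p = 0.0732) and IMZ + CTD (0.65 ± 0.18, edgeR adjusted p = 0.0567) missed the threshold. For Ces1h and Ces2i the THI call was lost without THI replicate 4 (adjusted p = 0.0909 and 0.133) and the IMZ call without IMZ replicate 3 (adjusted p = 0.0668 and 0.064).

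The levels of these 3 genes ran in parallel from rat to rat. Pearson's r of log2 CPM over the 31 rats was 0.973 for Ces1h and Ces2i, 0.962 for Ces2i and Ces2j, and 0.945 for Ces1h and Ces2j. After the mean of each group was taken off, r was 0.964, 0.934 and 0.934, and in the 8 controls alone it was 0.965, 0.975 and 0.986. Control replicate 2 was the lowest and Control replicate 4 the highest control for all 3 genes, and r without them was not computed. The ratio of Ces2i to Ces2j CPM within a rat stayed between 1.59 and 2.65 with a median of 1.96. That of Ces1h to Ces2i stayed between 2.08 and 2.93 with a median of 2.34. Ephx1 took part in this, with r after removal of group means of 0.781 to Ces2i, 0.726 to Ces2j and 0.721 to Ces1h. Ces1c did not go with them in the same sense, with 0.25 to Ces2i and 0.0913 to Ephx1, and was closest to Ces1d at 0.559 and Ephx2 at 0.628. These correlations are descriptions over rats whose libraries supply every gene at once, and no p was computed. The counts came from uniquely mapped reads, so reads that fit both Ces2i and Ces2j could not be assigned, and how reads of close copies were divided between them is uncertain.

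**Figure D2:**
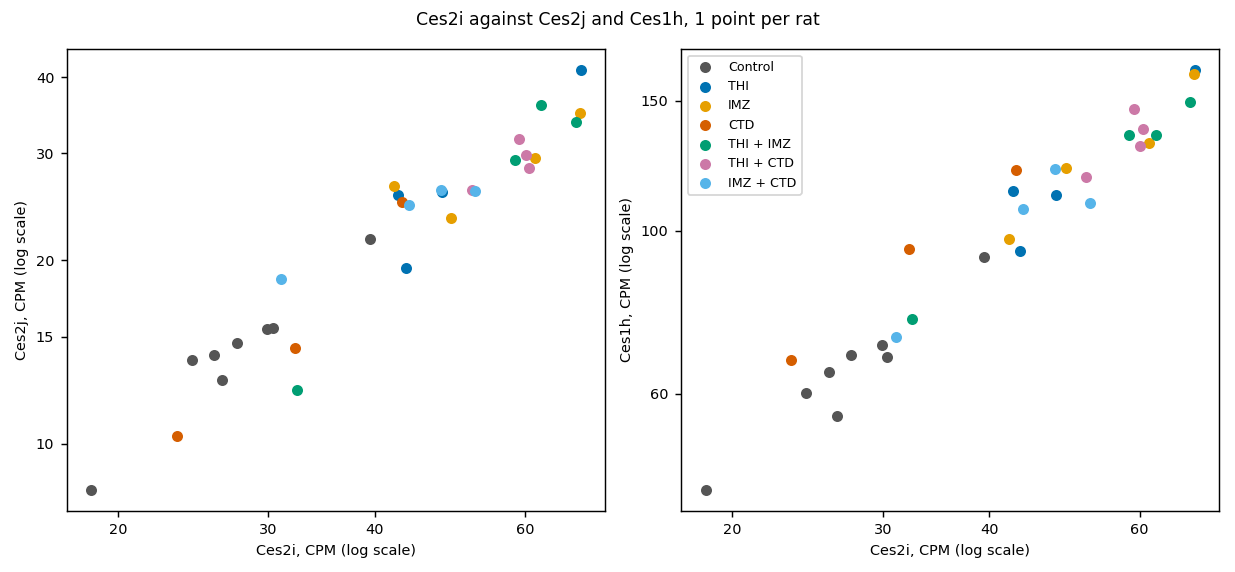
CPM of Ces2j (left) and Ces1h (right) against Ces2i, both axes on a log scale, with 1 point per rat coloured by group. Points follow a narrow band across all groups, with r = 0.962 on the left and 0.973 on the right, and the 8 controls lie in its lower part, as do 2 of 3 CTD rats.

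CES2H and Ces2g lie close together on chromosome 19, and both rose in THI and THI + CTD. CES2H had 55.7 to 78.6 CPM in controls and was above all controls in every rat of THI (83.1 to 106 CPM), THI + IMZ (91.8 to 120 CPM), THI + CTD (101 to 122 CPM) and IMZ + CTD (80.6 to 100 CPM). It was up-regulated in these 4 treatments, by 0.54 ± 0.10 in THI (edgeR adjusted p = 0.00526), 0.69 ± 0.10 in THI + IMZ (edgeR adjusted p = 0.000157), 0.76 ± 0.10 in THI + CTD (edgeR adjusted p = 2.11e-05) and 0.49 ± 0.10 in IMZ + CTD (edgeR adjusted p = 0.00877) on the log2 scale. In IMZ (72.7 to 87.1 CPM) it was 0.29 ± 0.10 (edgeR adjusted p = 0.36), and in CTD (69.1 to 99.7 CPM) 0.31 ± 0.11 (edgeR adjusted p = 0.0683). The THI call was lost without THI replicate 3 (adjusted p = 0.0522), and the IMZ + CTD call without replicate 2 or 4 of that group (adjusted p of up to 0.0653).

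Ces2g had 22.0 to 33.3 CPM in controls (median 26.4). The CTD rats had 40.0, 42.1 and 37.8 CPM and the THI rats 44.9, 34.9, 36.0 and 36.7, all above the controls. The THI + CTD rats had 46.4, 46.5, 40.2 and 24.2 CPM, so that 1 of 4 lay among the controls. In contrast the IMZ + CTD rats had 29.6, 22.0, 28.0 and 24.9 CPM, a mean of 26.1 ± 3.4 (SD, n = 4) beside 26.7 ± 3.6 in controls (n = 8). Ces2g rose by 0.58 ± 0.13 in CTD (edgeR adjusted p = 0.00328) and 0.56 ± 0.12 in THI + CTD (edgeR adjusted p = 0.00572). The THI value of 0.51 ± 0.12 passed narrowly (edgeR adjusted p = 0.0442) and was lost when any of 16 of the 31 rats was left out (adjusted p of up to 0.285). IMZ at 0.43 ± 0.12 (edgeR adjusted p = 0.175) and THI + IMZ at 0.38 ± 0.12 (edgeR adjusted p = 0.159) did not pass.

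Ces2e differed between rats of a group far more than between groups. A THI rat, replicate 1, had 19.8 CPM. A further 7 rats had 177 to 262 CPM, namely Control replicates 2 (177) and 3 (235), IMZ replicate 1 (214), CTD replicate 2 (220), THI + IMZ replicate 3 (262), THI + CTD replicate 3 (254) and IMZ + CTD replicate 4 (234). The other 23 rats had 348 to 578 CPM. The limit of 300 CPM that separates them was set after the values were seen and no test was run on it. Every group held 1 such low rat, and the controls 2. Ces2e spanned a 29.2-fold range, and 3.26-fold without THI replicate 1, and passed in no treatment, with edgeR adjusted p from 0.726 to 1. The test for any difference among the 7 groups gave an adjusted p of 0.992, the highest of the 12 genes. Ces2, which fell under the count limit, had 0.211 to 1.51 CPM in the 8 low rats (median 1.09) and 0.0183 to 2.31 CPM in the other 23 (median 0.284). It exceeded 1 CPM in 5 of the 8 and in 2 of the 23, and this too is a description with no test.

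Ces4a also passed in no treatment, with edgeR adjusted p from 0.295 to 1. It had 8.96 to 19.7 CPM in controls, and the THI + CTD group alone held both the highest rat of all, at 30.2 CPM, and the lowest, at 7.52. Ces2g and Ces4a were correlated after removal of the group means (r = 0.616), and the THI + CTD rat that was low for Ces4a was the one low for Ces2g.

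Counted by treatment, 8 of the 12 genes rose in THI, where 0.377% of all genes did, and 4 rose in IMZ (background 0.191%). In CTD 4 rose (background 6.62%) and 1 fell. In the mixtures 7 rose in THI + IMZ (background 0.849%), 9 in THI + CTD (background 2.67%) and 3 in IMZ + CTD (background 1.00%). Over the 7 groups, 10 of the 12 passed the test for any difference, beside 9.51% of all genes, and Ces2e and Ces4a did not. The median log2 fold change of the 12 was 0.55 in THI, 0.48 in IMZ, 0.30 in CTD, 0.76 in THI + IMZ, 0.72 in THI + CTD and 0.51 in IMZ + CTD, beside medians over all genes of -0.07 to -0.01. Counts of the single treatments moved with single rats. The THI count was 5 without THI replicate 2 or 3 and 4 without replicate 4. For IMZ edgeR gave 2 without IMZ replicate 4 and 0 without replicate 3, where 8 members still had an unadjusted p under 0.05. The Wald test of DESeq2 gave 5 for IMZ and 6 for IMZ + CTD. The IMZ + CTD count was 5 without Control replicate 4, THI replicate 4, THI + IMZ replicate 2 or IMZ + CTD replicate 1.

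All treated rats stood above all 8 controls for 7 members in THI (background 0.734%), 5 in IMZ (background 0.713%), 4 in CTD (background 5.33%), 4 in THI + IMZ (background 0.794%), 8 in THI + CTD (background 2.14%) and 1, CES2H, in IMZ + CTD (background 1.61%). THI, at 108 mg/kg bw/day, and CTD, at 288 mg/kg bw/day, are both neonicotinoids but were given at different doses, so their values stand side by side without a comparison. Ephx1, Ces1c, Ces1d and Ces2g were called upwards in both, Ces1h, CES2H, Ces2i and Ces2j in THI, and Ephx2 downwards in CTD. These lists follow the threshold, which Ces1h and CES2H missed in CTD with edgeR adjusted p = 0.0732 and 0.0683. The Wald test of DESeq2 called 7 members in CTD, where edgeR called 5.

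**Figure D3:**
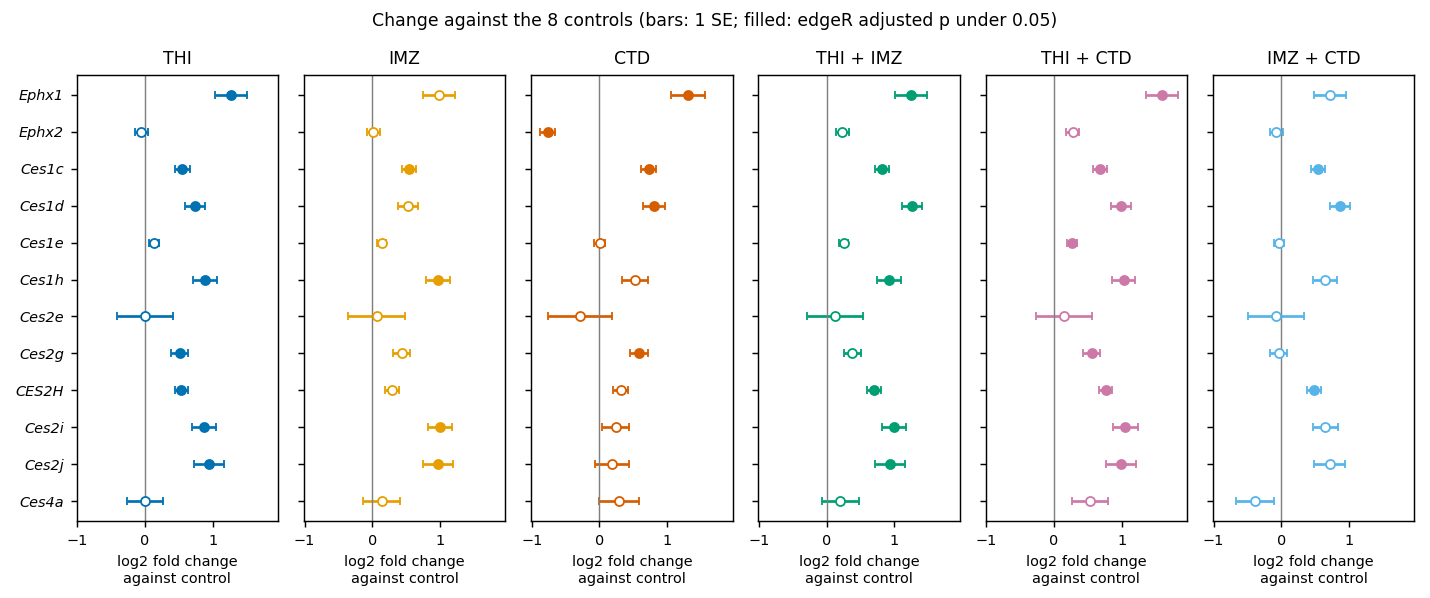
Log2 fold change against the 8 controls (horizontal axes) of the 12 genes in the 6 treatments, with bars of 1 SE. Filled points passed the edgeR test at an adjusted p under 0.05. Ces1c is filled in all 6 panels and Ces2e and Ces4a in none, and the filled point left of 0 is Ephx2 in CTD.

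The log2 fold change of each mixture was compared with that of its parts added after weighting by dose. THI and IMZ were each weighted by 0.5 and CTD was weighted by 0.47. This sum takes the log2 fold change of a compound to be proportional to its dose. No compound was sequenced alone at the dose it had in a mixture. A response that is not proportional to dose and an effect of the combination thus cannot be told apart. Ephx2 in THI + CTD stood apart from the sum by 0.66 ± 0.10 (edgeR adjusted p = 0.000353), where 0.286% of all genes passed. With 134 mg/kg bw/day of CTD in the mixture, Ephx2 had a mean of 49.2 ± 5.2 CPM (SD, n = 4), beside 24 ± 0.98 with CTD alone (n = 3) and 40.7 ± 5.1 in controls (n = 8). In IMZ + CTD the difference for Ephx2 was 0.28 ± 0.10 and did not pass (edgeR adjusted p = 0.169). Ces2g in IMZ + CTD was below its sum by -0.52 ± 0.13 (edgeR adjusted p = 0.0388), where 1.16% of all genes passed. This call ended without IMZ replicate 3 or 4, CTD replicate 1 or 2, or IMZ + CTD replicate 2, 3 or 4 (adjusted p of up to 0.152).

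In THI + IMZ edgeR called 0 of the 12 genes off the sum, where 0.0151% of all genes passed, while 4 members had an unadjusted p under 0.05 and the Wald test of DESeq2 called 1. That gene was Ces1d, 0.63 ± 0.15 above its sum (edgeR adjusted p = 0.12, DESeq2 adjusted p = 0.02). In THI + CTD all 12 differences from the sum were positive, with a median of 0.34 beside -0.01 over all genes. Among them were CES2H at 0.35 ± 0.10 (edgeR adjusted p = 0.206) and Ces2i at 0.51 ± 0.18 (edgeR adjusted p = 0.341), neither of which passed. Of the 12, 4 had an unadjusted edgeR p under 0.05, and Ces2g at 0.03 fell to -0.06 with 1 rat left out. The share of all genes with a positive difference was not computed, and several of the 12 genes varied together from rat to rat. The 3 sums share the controls and, pairwise, the rats of 1 compound.

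**Figure D4:**
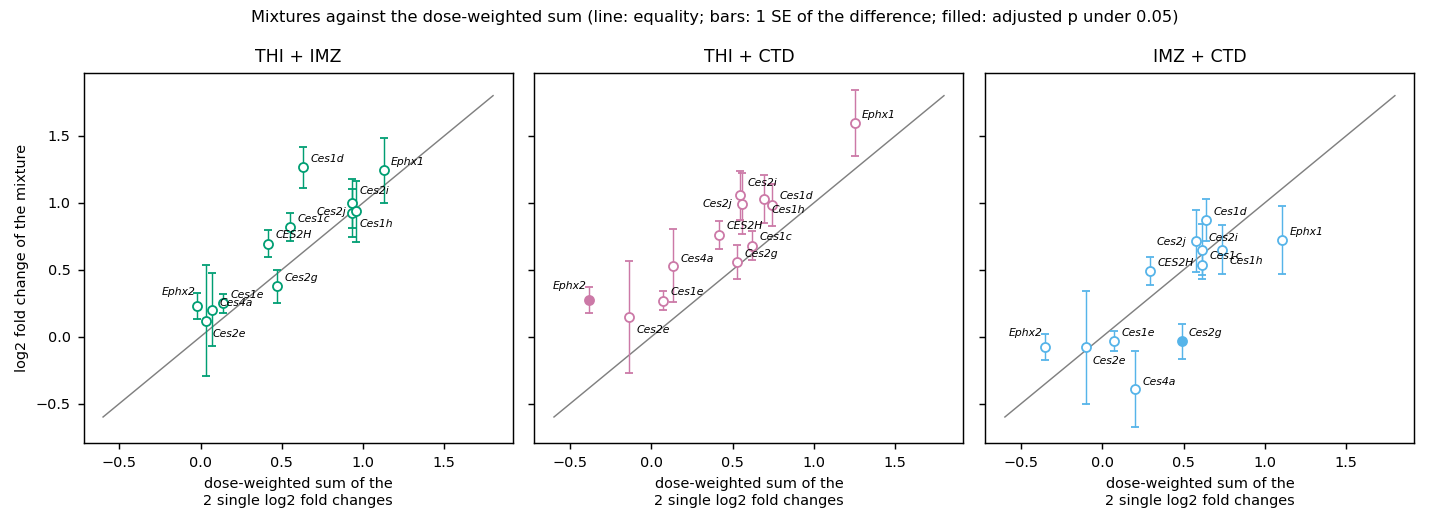
Log2 fold change of each mixture (vertical axis) against the dose-weighted sum of the log2 fold changes of its parts (horizontal axis), 1 point per gene, with the line of equality and bars of 1 SE of the difference. Filled are Ephx2 in THI + CTD, 0.66 above the line, and Ces2g in IMZ + CTD, 0.52 under it.

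P450 enzymes form the epoxides that the hydrolases open. Of 13 epoxide-forming P450 genes tested, 4 rose in THI, 5 in IMZ, 5 in CTD, 3 in THI + IMZ, 7 in THI + CTD and 3 in IMZ + CTD, and none passed downwards. The shares of all genes that rose were 0.377%, 0.191%, 6.62%, 0.849%, 2.67% and 1.00% in the same order. Their median log2 fold change was 1.09 in THI, 1.40 in IMZ, 0.59 in CTD, 0.74 in THI + IMZ, 0.93 in THI + CTD and 0.30 in IMZ + CTD. Cyp2b1, Cyp2b2 and Cyp3a23/3a1, P450s of drug metabolism, rose in all 6 treatments, with Cyp2b2 between 3.65 ± 0.43 in IMZ + CTD (edgeR adjusted p = 7.57e-06) and 5.96 ± 0.45 in THI + CTD (edgeR adjusted p = 3.67e-10) on the log2 scale. Cyp1a1 rose in IMZ (3.28 ± 0.63, edgeR adjusted p = 0.00909) and CTD (3.01 ± 0.67, edgeR adjusted p = 0.00233). Cyp2j4, a P450 that epoxidizes fatty acids, rose in CTD by 0.59 ± 0.18 (edgeR adjusted p = 0.0238) and in THI + CTD by 0.70 ± 0.16 (edgeR adjusted p = 0.00811). No other Cyp2c or Cyp2j gene of the list was called in CTD.

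Other genes that clear epoxides, mostly glutathione S-transferases, numbered 17 among those tested. Of these 4 rose in THI, 3 in IMZ, 2 in CTD, 4 in THI + IMZ, 7 in THI + CTD and 2 in IMZ + CTD, and none fell. Beside these counts, 0.377%, 0.191%, 6.62%, 0.849%, 2.67% and 1.00% of all genes rose in the same order. Gsta3 and Gstm1, which conjugate electrophiles with glutathione, passed in all 6 treatments. Gsta3 was between 1.30 ± 0.20 in IMZ + CTD (edgeR adjusted p = 0.000718) and 1.62 ± 0.20 in THI + CTD (edgeR adjusted p = 8.55e-06). Gstm3 rose in THI, IMZ and THI + IMZ, by up to 3.36 ± 0.60 in IMZ (edgeR adjusted p = 0.00426). By Pearson's r of log2 CPM over the 31 rats and 10875 genes with a symbol, the 3 genes most like Ephx1 were Ugt1a2 (0.891), Gstm1 (0.89) and Aldh1a1 (0.886), and those most like Ces1c were Gsta3 (0.897), Ces1d (0.868) and Aldh1a1 (0.846).

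Other hydrolases of ester bonds passed in CTD and THI + CTD. Of 25 further esterase and lipase genes (26 rows, as 1 symbol stood on 2), none passed in THI, IMZ, THI + IMZ or IMZ + CTD by edgeR, where 3 to 7 of the 26 rows had an unadjusted p under 0.05. In CTD Acot1 (3.17 ± 1.02, edgeR adjusted p = 0.0369), Acot2 (0.72 ± 0.17, edgeR adjusted p = 0.00433) and Pnpla8 (0.35 ± 0.09, edgeR adjusted p = 0.00682) rose, 3 of 26 rows beside 6.62% of all genes. Acot1 and Acot2 are acyl-CoA thioesterases. In THI + CTD Acot2, Acot12 and Nceh1 rose and Bche, the gene of butyrylcholinesterase, fell by 0.78 ± 0.20 (edgeR adjusted p = 0.019), thus 3 rows upwards and 1 downwards beside 2.67% and 1.71% of all genes. The median over the rows lay between -0.10 and 0.08 in the 6 treatments.

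A list of 7 genes held partners and retention factors of the endoplasmic reticulum, where carboxylesterases reside. In CTD, where 6.03% of all genes fell, 2 of the 7 did. They were Gusb (-0.34 ± 0.08, edgeR adjusted p = 0.00494), the gene of beta-glucuronidase, which a carboxylesterase holds in this compartment, and Hsp90b1 (-0.48 ± 0.16, edgeR adjusted p = 0.04), a chaperone. None of the 7 passed in the other 5 treatments by edgeR, and 0 or 1 had an unadjusted p under 0.05. A difference between treatments was not tested. Of 10 genes of triglyceride storage and lipoprotein assembly, Dgat2 fell in CTD (-0.50 ± 0.15, edgeR adjusted p = 0.0268) and Dgat1 rose in THI + CTD (0.25 ± 0.07, edgeR adjusted p = 0.0326). These were 1 of 10 each, beside 6.03% of all genes that fell in CTD and 2.67% that rose in THI + CTD.

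Among 9 sensors, Nr1i3, the gene of CAR, rose in CTD (1.10 ± 0.29, edgeR adjusted p = 0.00987), THI + IMZ (1.24 ± 0.26, edgeR adjusted p = 0.0122) and THI + CTD (1.37 ± 0.26, edgeR adjusted p = 0.00195). Ppara, the sensor of fatty acids, rose in THI + IMZ by 0.73 ± 0.14 (edgeR adjusted p = 0.00312), Rxra fell in CTD by 0.34 ± 0.09 (edgeR adjusted p = 0.00801) and Nr1i2, the gene of PXR, fell in IMZ + CTD by 0.37 ± 0.09 (edgeR adjusted p = 0.0368). Of all genes, 6.62% rose in CTD, 0.849% in THI + IMZ and 2.67% in THI + CTD. Downwards, 6.03% of all genes passed in CTD and 0.452% in IMZ + CTD. Of 9 NRF2 targets, 2 rose in THI, 1 in IMZ, 5 in CTD, 2 in THI + IMZ, 3 in THI + CTD and 0 in IMZ + CTD by edgeR. The shares of all genes were 0.377%, 0.191%, 6.62%, 0.849%, 2.67% and 1.00% in the same order. Gclm, a subunit of the enzyme that starts glutathione synthesis, rose in all of these treatments but IMZ + CTD, by 1.04 ± 0.11 in CTD (edgeR adjusted p = 8.91e-08). In IMZ + CTD, 2 of 9 had an unadjusted p under 0.05.

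Markers of other cell types passed in THI + CTD as well, and of the marker lists in IMZ + CTD only cell division genes passed. In IMZ + CTD and in THI + IMZ, 5 of 9 Kupffer cell markers had an unadjusted edgeR p under 0.05. The median log2 fold change of these 9 was -0.32 in IMZ + CTD and -0.28 in THI + IMZ. In THI + CTD 5 of 9 Kupffer cell markers passed downwards, with a sum of 406 to 497 CPM against 493 to 785 in controls, and 1 of 4 red blood cell markers (Hbb) passed upwards, with a sum of 26.2 to 209.5 CPM. Of all genes, 1.71% passed downwards and 2.67% upwards in THI + CTD. Cell division genes passed upwards in 7 of 10 in THI + IMZ, 9 in THI + CTD and 9 in IMZ + CTD, beside 0.849%, 2.67% and 1.00% of all genes. In IMZ none passed by edgeR, while 9 of 10 had an unadjusted p under 0.05 and their median log2 fold change was 1.36. Hepatocyte markers passed upwards as Apoa1 in THI + IMZ and downwards as Serpina1 in THI + CTD, and in no other case. In IMZ 5 of these 7 had an unadjusted edgeR p under 0.05. Of 8 pancreas markers Cpa1 passed downwards in CTD and THI + CTD. The summed level of the 8 was 194 to 470 CPM in controls, 60.3 to 127 in THI, 98.5 to 207 in IMZ, 17.9 to 138 in CTD, 58.0 to 182 in THI + IMZ, 22.0 to 145 in THI + CTD and 82.5 to 216 in IMZ + CTD. It thus lay below all controls in every rat of THI, CTD, THI + IMZ and THI + CTD. Nearly all of it was Cpa1 (189 to 464 CPM in controls), and Prss1 and Pnlip, which define acinar cells, were at 0 in all controls. Lymphocyte, cholangiocyte and intestine markers passed in no treatment by edgeR, with 0 to 2 of a list at an unadjusted p under 0.05. Of 7 stellate cell and fibroblast markers Reln fell in CTD and THI + CTD, Col3a1 rose in CTD and Col1a1 in THI + CTD, and of 6 markers of sinusoidal endothelium Kdr fell in both. The part of these in the values of the 12 genes was not tested.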

How the data were processed

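Liver RNA of 31 female rats in 7 groups was sequenced from stranded total RNA libraries. Per the study's methods and processing notes, the authors checked reads with FastQC 0.11.5, trimmed them with Skewer, mapped them to Rnor_5.0 with STAR 2.5.2b and counted uniquely mapped reads per gene. The annotation release and strand setting of the counting are not given in the sources used here. The deposited counts are whole numbers without normalization for 26312 genes. The deposited signal is the count scaled by a size factor per library (the authors used DESeq2 1.15.1), checked to a relative deviation of 5.3e-15, and covers the 19904 genes whose counts reached 2 or more in all. Only the counts were tested.

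The counts of these 19904 genes were normalized with TMM and fitted with the quasi-likelihood method of edgeR 4.0.16 (R 4.3.3) as 1 model of all 7 groups, so that all rats share 1 estimate of the spread. The biological coefficient of variation was 19.4%. Contrasts were the 6 treatments against control, the 3 mixtures against the dose-weighted sum, and a joint test over the groups. Benjamini-Hochberg adjustment ran over all genes tested, and the threshold was an adjusted p of 0.05. Log2 CPM used a prior count of 2. SEs were taken from the log2 fold change and the root of its F statistic. On simulated counts with 200 changed genes, all with a mean above 1 CPM, there were 5 to 10 false calls per treatment. Of genes changed by a log2 fold of 1, 91.1% to 96.2% were recovered, and 98% to 100% of those changed by 2. Most changes of the members were smaller than these, and such changes were not simulated.

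The genes described and the gene lists were chosen with earlier results of these data known. Named genes were every member, the Ces rows nearest to the count limit, up to 3 genes per list and comparison with the smallest p past the threshold, and the 3 genes most like Ephx1 and Ces1c. Marker genes of other cell types and Cyp1a1, Cyp2j4, Gstm3 and Bche are named beyond this rule, after their values were seen. Alternatives were the size factors and the Wald test of DESeq2 1.42.0, other filters, a fit of the compared groups alone, a block for the replicate number, thinned counts, exact dose ratios and leaving out each rat. Promoter sequences came from RefSeq (GRCr8) and were aligned with Biopython 1.88, with a match score of 1, a mismatch score of -1 and gaps at -2 to open and -0.5 to extend.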

Additional observations from a re-analysis of the deposited data

Results flagged for a closer look

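In groups of 4 to 8 rats, 4 of 72 combinations of gene and group had a lowest or highest rat far from the rest by Dixon's test at the 95% level, where chance gives about 1 in 20. Ces2e was lowest in THI replicate 1 at 19.8 CPM, a gap of 0.832 of the group's range, and in IMZ + CTD replicate 4 at 234 CPM (0.839). Ces1d was lowest in IMZ + CTD replicate 1 at 413 CPM (0.904). Ephx2 was highest in IMZ replicate 4 at 48.5 CPM (0.85).

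Against the dose-weighted sum of their compounds, 2 values differed by the edgeR test of the difference itself. Ephx2 in THI + CTD was 0.66 higher on the log2 scale (adjusted p = 0.000353), and Ces2g in IMZ + CTD differed by -0.52 (adjusted p = 0.0388).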

How the results depend on the processing

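Of the 38 calls of single members, 24 held without any 1 rat and 18 in all alternatives run, and no called value changed sign in any of them. The calls that held without any 1 rat but not in all alternatives were lost only with the replicate number as a block. Of 108 log2 fold changes, 25 that were not called changed sign in at least 1 alternative. The size factors of DESeq2 and exact dose ratios changed no call. By the Wald test of DESeq2, 6 members instead of 3 were called in IMZ + CTD and 7 instead of 5 in CTD. It gave 8 instead of 7 in THI + IMZ and 5 instead of 4 in IMZ. Against the dose-weighted sum it gave 1 instead of 0 for THI + IMZ. A fit of the compared groups alone also gave 6 in IMZ + CTD. Thinning to the smallest library (31820322 counts) gave 0 instead of 1 for IMZ + CTD against the sum. With 1 rat left out, the counts ranged from 4 to 8 in THI, 0 to 5 in IMZ, 2 to 5 in IMZ + CTD and 0 to 1 for IMZ + CTD against the sum. The cause was not tested.

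Replicate numbers did not pair rats across groups, with a median correlation of deviations of 0.023 over 78 pairs of rats with the same number (from -0.272 to 0.419). With the number as a block, the members called were 3 instead of 8 in THI, 1 instead of 4 in IMZ, 3 instead of 7 in THI + IMZ and 0 instead of 1 for IMZ + CTD against the sum, and 16 of the calls were lost in all. Replicate numbers 5 to 8 occurred in the controls alone, so this block left those controls with no weight in the comparisons. The part of this in the lost calls was not tested. Levels per gene length were not run, as no lengths of the counted gene models were used here. With 3 or 4 treated rats per group, precision is limited by the number of rats, and how reads of close Ces copies were divided is uncertain.

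These changes of sign were of log2 fold changes from -0.288 (Ces2e in CTD) to 0.281 (Ces4a in CTD). With 1 rat left out, 23 of them crossed 0. In THI against control the values ran for Ephx2 from -0.127 to 0.0138, Ces2e from -0.237 to 0.394 and Ces4a from -0.196 to 0.214. In IMZ the values ran for Ephx2 from -0.0767 to 0.0653 and Ces2e from -0.0599 to 0.284. In CTD the values ran for Ces2i from -0.00108 to 0.432, Ces2j from -0.235 to 0.433, Ces1e from -0.0384 to 0.0652 and Ces4a from -0.0383 to 0.441. In THI + IMZ the values ran for Ces4a from -0.0334 to 0.337. In IMZ + CTD the values ran for Ces2e from -0.19 to 0.0869 and Ces2g from -0.0999 to 0.0378. Against the dose-weighted sum THI + IMZ gave Ces2i from -0.0554 to 0.253, Ephx1 from -0.134 to 0.358, Ces2e from -0.109 to 0.275, Ces2j from -0.165 to 0.224, Ces1h from -0.112 to 0.169 and Ces4a from -0.101 to 0.265. THI + CTD against the sum gave Ces2g from -0.063 to 0.199. IMZ + CTD against the sum gave Ces2i from -0.0666 to 0.173, Ces2e from -0.0837 to 0.189, Ces1h from -0.181 to 0.0506 and Ces1c from -0.155 to 0.0439. With thinned counts Ces2e was 0.000991 and Ces4a -0.0177 in THI, Ces1e was -5.36e-05 in CTD, and Ces2j and Ces1h were 0.00389 and 0.000469 for THI + IMZ against the sum. Ces2e in THI was 0.00187 with filterByExpr, and Ces4a in THI -0.000789 with no filter. With the replicate block Ces2e was 0.257 in THI, 0.0388 in CTD and 0.224 in IMZ + CTD, Ces1e was 0.00173 in IMZ + CTD, and Ces2i was -0.0172 for IMZ + CTD against the sum. None of these had an adjusted p under 0.05 in these settings, and the cause was not tested.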
